A study of Homo sapiens with 8 samples.

Results

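PCF11, CSTF3 and RBBP6 are genes of the cleavage and polyadenylation machinery, and each can end its own transcript early, at a poly(A) site inside an intron. They were chosen by name for that property, as 3 of the 19321 protein-coding genes of GENCODE release 44. Every poly(A) peak that overlapped the span of one of them, or the 4 kb after its 3′ end, was taken as a member. That gave 37 of the 153624 peaks in the deposited list. The RNA came from Kelly cells, a human neuroblastoma line, and from Kelly E9R, a single derived line that carries a point mutation in CDK12 at the cysteine bound by THZ531, a covalent inhibitor of CDK12 and CDK13. The mutation arose under rising doses of E9, a related inhibitor. Each line was held for 6 h with DMSO (2 libraries per line) or with 400 nM THZ531 (2 libraries per line), as the labels give it. The methods name a lower dose for these lines, so the dose is uncertain. The 8 libraries were merged before peaks were called, and the list has neither a value per library nor a strand. The values below therefore describe all 4 groups at once, and no difference between THZ531 and DMSO, or between the lines, could be computed.

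The 3′ end of a messenger RNA is made by cutting the nascent transcript downstream of a hexamer, most often AATAAA, which the CPSF complex reads, while the CstF complex binds the sequence beyond the cut. PCF11 belongs to cleavage factor II and binds the C-terminal domain of RNA polymerase II. CSTF3 encodes CstF-77, the scaffold of CstF, and RBBP6 is a large RING finger protein that activates the cut. A site used within an intron yields a short transcript in place of the full message. In CSTF3 and PCF11 such a site is known to take part in feedback on the level of the protein. The short RBBP6 product keeps the N-terminal ubiquitin-like domain and competes with the full protein.

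The sequences around the 3′ edge of the peak at each known site are shown first. The edge marks the far limit of the cuts on the strand of the gene, and a wide peak can hold several. Reads of this assay begin at the poly(A) junction and were extended by 100 bases into the transcript. Each sequence is 30 bases of GRCh38 read 5′ to 3′ on the gene strand, with 1 hexamer in capitals. Others stood before the edge of 2 intronic peaks. PCF11 also had AATAAA at 77 bases and TATAAA at 46 and 24, and CSTF3 had ATTAAA at 91 and AATGAA at 86.
PCF11 intron 1, chr11:83158848-83158877, plus strand: ataaaatttgtgAATAAAacatataaaata
CSTF3 intron 3, chr11:33141434-33141463, minus strand: agttgcaacaacATTAAAacagtttcaatg
RBBP6 intron 3, chr16:24549368-24549397, plus strand: tttgtttcttgcAATAAAaaatgtttggag
The same stretch at the distal end, where the full message stops, is shown to compare with the intronic one.
PCF11 distal, chr11:83185761-83185790, plus strand: attcatacatgtAATAAAtagaatgatgaa
CSTF3 distal, chr11:33084494-33084523, minus strand: ataccatttaaaAATAAAtgtcaggacaag
RBBP6 distal, chr16:24572824-24572853, plus strand: ctttttgattacAATAAAagttttcagtaa
All 3 distal ends and 2 of the 3 intronic ends carried AATAAA, and the CSTF3 intronic end carried the variant ATTAAA. Over all genes, AATAAA stood before 55.0% of peaks at distal ends and 40.02% of peaks at intronic ends. These shares, and later ones for hexamers and A-rich sequence over all genes, cover only peaks whose overlapping genes lie on 1 strand. The distal peaks of PCF11 and CSTF3 overlap genes on both strands, so they lie outside that set.

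Priming of oligo(dT) on A-rich genomic sequence can imitate a poly(A) site, so the 30 bases that follow each intronic edge are given next.
PCF11 intron 1, chr11:83158893-83158922, plus strand: tatttacctttgtaaggtgtagaatctgtt
CSTF3 intron 3, chr11:33141401-33141430, minus strand: ttggagtgctttagccttttatttacttgt
RBBP6 intron 3, chr16:24549423-24549452, plus strand: tatcacttagtttttgttagtttttttttt
They held 7, 4 and 4 A, with no run above 2, and were rich in T, the base that stands for the U of downstream elements. A peak is called A-rich here when 6 A in a row, or 7 A among 10 bases, lie in the 50 bases after its edge. None of these 3 peaks was, whereas 21 of the 37 peaks were. Over all genes, 79.8% of intronic peaks, 48.0% of peaks at intronic ends and 20.1% of peaks at distal ends were A-rich. A pair of intronic peaks of CSTF3 away from any annotated end is shown as the contrast, with the run of A in capitals.
CSTF3 intron 1, chr11:33154479-33154508, minus strand: AAAAAAAAAAAAAAAAAgaaagtcttacgg
CSTF3 intron 1, chr11:33148850-33148879, minus strand: tAAAAAAAAAAAAAAAAAAcacagcaacag
These runs were 17 and 18 A long, and neither peak had any of the 12 hexamers before it. The study removed peaks that lacked a hexamer and were followed by 25 bases of which all but 3 were A. No such stretch followed any of the 37 peaks, so all 37 were retained.

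Peak strength is given below as the summit pileup, the number of extended reads that overlapped the summit. It was recovered from the deposited fold enrichment and p-value, which MACS2 derives from that number and a local background. The recovered number was whole for 100% of the peaks, within a tolerance of 0.001 in −log10 p. The median pileup of the list was 9 (quartiles 6 and 14), and the highest was 200, reached by 2 peaks. That is also the number that 1 read per position and strand gives with an extension of 100 bases. The study's settings for peak calling name none for duplicate reads, and no pileup exceeded 200 although values up to 400 were tried. Pileups are therefore read below as counts of distinct start positions, which understate strong sites. This reading was not tested.

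PCF11 (ENSG00000165494.12) lies on the plus strand of chr11:83156988-83187451 and spans 30.5 kb with 15 introns and 1686 codons. Its intronic peak at chr11:83158739-83158892 had a pileup of 21, a fold enrichment of 9.82 and a −log10 q of 16.1. The 3′ edge lay 13 bases past the annotated end of PCF11-207, in intron 1 and 1761 bases from the start of the transcript. A transcript cut there holds the first 64 codons of the reference transcript, or 3.796% of its reading frame. PCF11-207 itself has no annotated reading frame. The peak at the distal end, chr11:83185679-83185792, had a pileup of 24 and a fold enrichment of 8.36, and its edge lay 2 bases before the end of PCF11-208. The 2 ends of the gene therefore had nearly the same pileup, at sites 26900 bases apart. No peak was found at the later annotated end, that of PCF11-201 at position 83187451.

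A second peak in intron 1 of PCF11, at chr11:83159762-83159906, had a pileup of 14 and no annotated end.
PCF11 intron 1, second peak, chr11:83159875-83159904, plus strand: cttcacttgtacAATAAAaaattagcctac
It had AATAAA 20 bases before its edge and no A-rich sequence after it, and so the features of the annotated site. The other 3 intronic peaks had pileups of 8, 11 and 14, and 2 of them were A-rich. The strongest of the 3 by −log10 q (13.1), in intron 9, was followed by 10 A in a row. Peaks in coding exons had pileups of 22, which was A-rich, and 14, which had no hexamer. A terminal exon peak 377 bp wide had a pileup of 21 with ATTAAA 19 bases before its edge. The last 2 peaks, past the gene, lay 17 and 12 bases from annotated ends of ANKRD42-DT, a noncoding gene on the opposite strand. The list has no strand, so the signal of the 2 genes cannot be told apart there. The same holds for the distal peak, the other term of the PCF11 shares below, which overlaps ANKRD42-DT and PCF11-AS1 on the opposite strand and lies at an offset of −158 bases from an annotated end of PCF11-AS1. The terminal exon peak overlaps ANKRD42-DT and lies at an offset of 559 bases from that end.

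CSTF3 (ENSG00000176102.13) lies on the minus strand of chr11:33077188-33162371 and spans 85.2 kb with 20 introns and 717 codons. Its peak at chr11:33141431-33141605, in intron 3, had a pileup of 25, a fold enrichment of 10.8 and a −log10 q of 19.8. This was the strongest of the 15 peaks of the gene by pileup and by −log10 q. It lay 236 bases into an intron of 33248 bp, the longest of the gene. A transcript cut there and otherwise like the reference transcript holds the first 75 codons, or 10.5% of the reading frame. The annotated CSTF3-202 itself has 44 codons. The distal peak, at chr11:33084493-33084691, had a pileup of 23, a fold enrichment of 11.3 and a −log10 q of 19.5. The 2 pileups were nearly the same, at sites 56938 bases apart.

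At both ends of CSTF3 the edge lay past the annotation. The intronic edge was 34 bases past the end of CSTF3-202, and its ATTAAA began 14 bases after that annotated end. The distal edge was 91 bases past the end of CSTF3-201, with AATAAA 19 bases before it. Both peaks were also wide, at 175 and 199 bp, where a single cut gives about 100 bp. Over all genes, 3688 peaks had their edge within 100 bp of an annotated intronic end. Their median offset was 1 base (quartiles −4 and 13). Under the same limit, which bounds the spread, 14881 peaks at distal ends had a median offset of 1 base (quartiles −1 and 9). TCP11L1 overlaps the distal end of CSTF3 on the opposite strand. Of the 4 annotated intronic ends of CSTF3, all in intron 3, this peak lay in the window of CSTF3-202 and CSTF3-204, and those of CSTF3-203 and CSTF3-207 had no peak.

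CSTF3 had 10 further intronic peaks, with pileups of 6 to 19, and 9 of them were A-rich. The exception, at chr11:33117971-33118199 in intron 3, had a pileup of 10 and AATAAA 19 bases before its edge.
CSTF3 intron 3, second peak, chr11:33117972-33118001, minus strand: aattgatatgaaAATAAAatgtaactgaga
The strongest of the 10 by −log10 q (13.9) lay 5 bases from the end of LINC00294, a noncoding gene on the opposite strand, within a long CSTF3 transcript that runs past the reference. The exon peak of CSTF3, in the exon before intron 2, had a pileup of 16 and was A-rich. Of the 2 peaks past the gene, the first had a pileup of 18, and the last, with a pileup of 20, lay 0 bases from an annotated end of TCP11L1. Without peaks whose edge lay within 100 bp of an opposite-strand end, those at ends of the gene itself being kept, an alternative added after the values were seen, CSTF3 had 13 peaks and 9 intronic peaks, and PCF11 had 9 and 4.

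RBBP6 (ENSG00000122257.20) lies on the plus strand of chr16:24537693-24572863 and spans 35.2 kb with 17 introns and 1792 codons. It had peaks at all 3 of its annotated intronic ends. The peak in intron 3, at chr16:24549301-24549422, had a pileup of 19, a fold enrichment of 12.05 and a −log10 q of 18.8. Its edge lay 21 bases past the end of RBBP6-204, the transcript of the short protein of 118 codons, most of them encoded before the intron. The distal peak, at chr16:24572758-24572860, had a pileup of 18 and a fold enrichment of 6.48, and its edge lay 3 bases before the end of RBBP6-201. Thus the short and the full message had about equal pileups, at sites 23438 bases apart.

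The strongest peak of RBBP6 was at another intronic end, that of RBBP6-206 in intron 8, at chr16:24559672-24559808. It had a pileup of 38, a fold enrichment of 21.9 and a −log10 q of 46.1, and its edge lay 3 bases past the annotated end.
RBBP6 intron 8, chr16:24559758-24559787, plus strand: ttttaataataaAATAAAtaatgttgatga
RBBP6 intron 8, after the edge, chr16:24559809-24559838, plus strand: taagtagtgagaagtctgtttttcttgctg
The 30 bases after the edge held 6 A, and the A-rich stretch that marked this peak began 40 bases after the edge. A transcript cut here and otherwise like the reference transcript holds the first 282 codons, or 15.7% of the reading frame. For the site in intron 3 that share is 5.64%. The annotated RBBP6-206 itself has 137 codons. The peak at the end of RBBP6-213, in intron 4, was the weakest of the 3, with a pileup of 12, AATAAA 21 bases before its edge and an A-rich stretch 21 bases after it.

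The other RBBP6 peaks lay away from the intronic ends or in exons. A peak at chr16:24540448-24540611, in the first exon and ahead of the reading frame, had a pileup of 35 and a fold enrichment of 19.6. It had TATAAA 50 bases and AATATA 46 bases before the edge, with no A-rich sequence after it. It lay 327 bases past the end of RBBP6-211, a retained intron transcript. A peak in intron 1, the only intronic peak away from annotated ends, had a pileup of 23 and was followed by 8 A in a row. A peak with a pileup of 7 lay inside intron 3 of the reference transcript, in sequence that is exon in RBBP6-204, and was counted as an exon peak. The 3 further exon peaks, after 936, 1142 and 1239 codons of the reading frame and with pileups of 31, 16 and 15, and a terminal exon peak with a pileup of 21 were all A-rich.
RBBP6 exon, after the edge of the peak with a pileup of 31, chr16:24569499-24569528, plus strand: agaaaaagaagaaaaggggaggaaagtgag

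**Figure D1:**
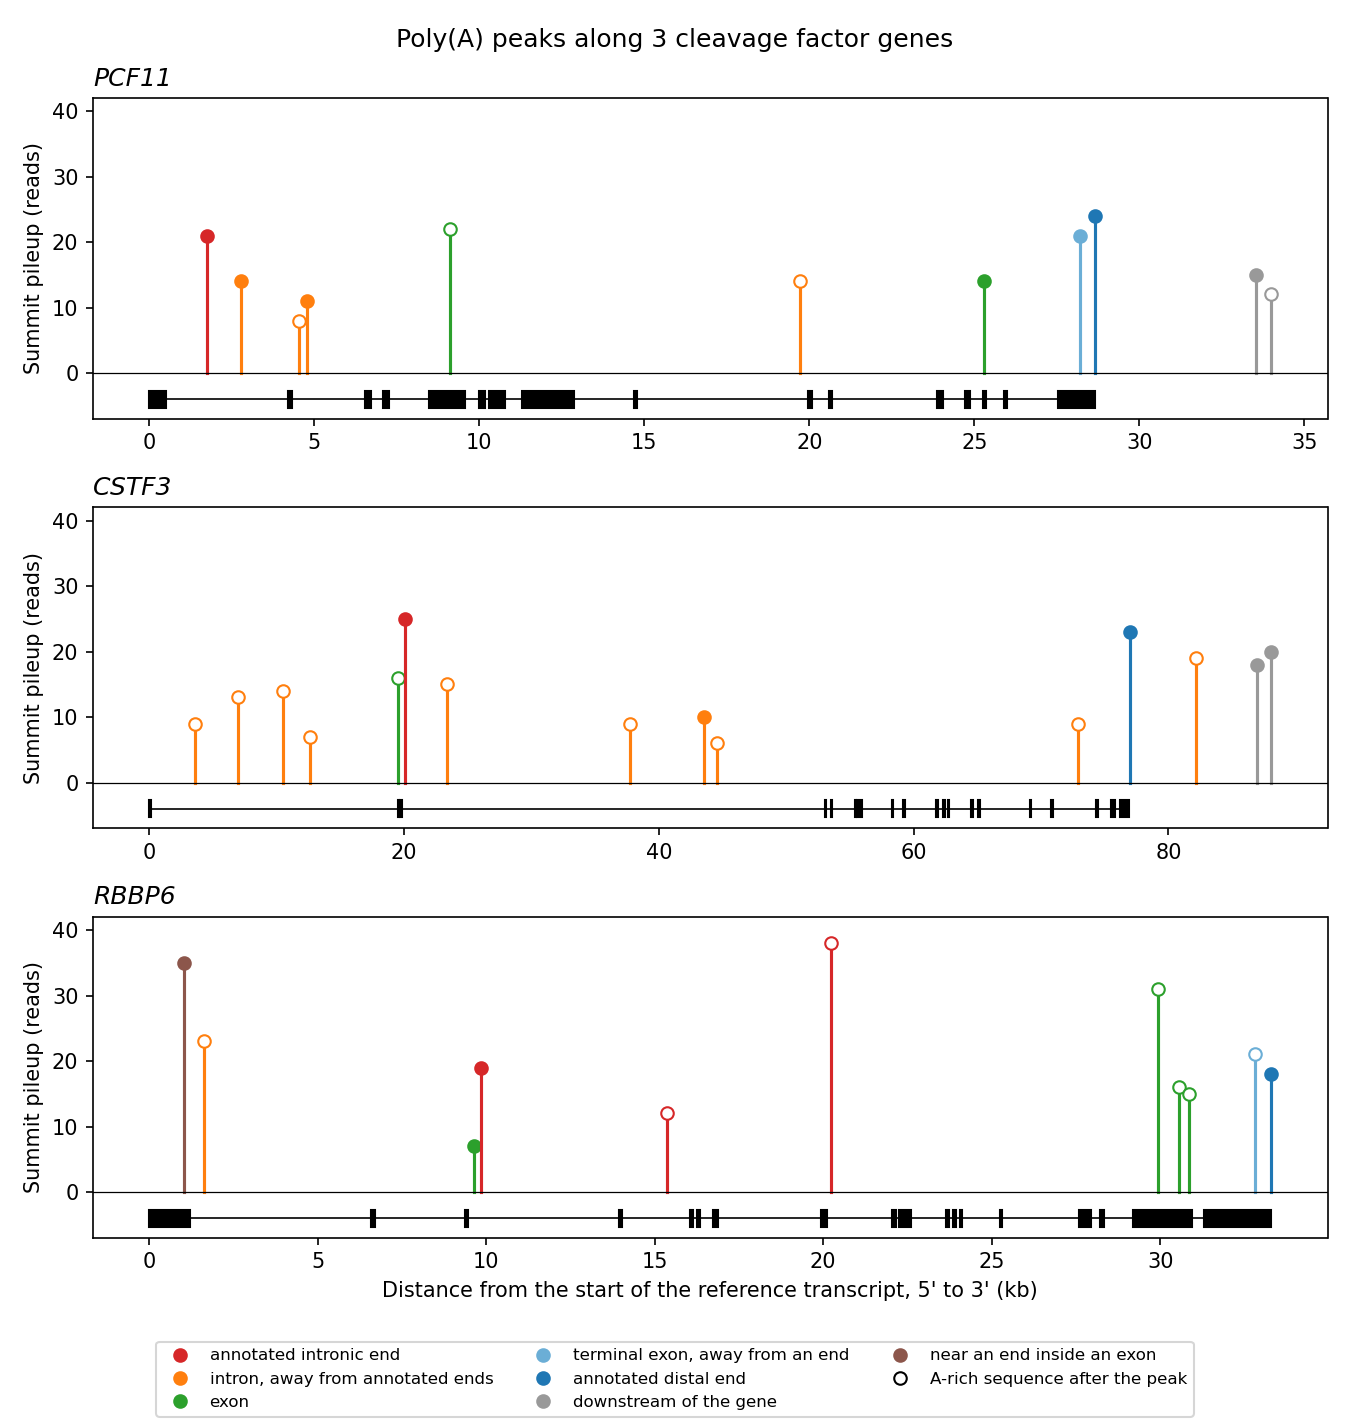
Summit pileup (reads, vertical axis) of each of the 37 peaks against the distance of its 3′ edge from the start of the reference transcript (kb), with exons as black boxes and introns as the line below, and open circles for peaks followed by A-rich sequence. The annotated intronic ends of PCF11 (21), CSTF3 (25) and RBBP6 (19, 12 and 38) stand beside distal ends at 24, 23 and 18, with RBBP6 intron 4 the lowest and intron 8 the highest, and the CSTF3 peak at an end of LINC00294, past the reference transcript, is drawn as intronic.

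The question posed by these sites is how much signal they took beside the full message. As a share of the summed pileup of the intronic and the annotated distal peak, the known sites took 46.7% in PCF11 (21 of 45, Clopper-Pearson 95% interval 31.7 to 62.1), 52.1% in CSTF3 (25 of 48, 37.2 to 66.7) and 51.4% in RBBP6 intron 3 (19 of 37, 34.4 to 68.1). The sites of RBBP6 in introns 4 and 8 took 40% and 67.9%. The intervals cover counting error only and treat the counted reads as independent. All but that of intron 8 (54.0 to 79.7) include an even split. Because pileups are read as distinct start positions, strong sites are understated, and a share also depends on how far those positions spread. The intronic peak was wider than the distal one in PCF11 (154 against 114 bp). It was also wider in RBBP6 introns 3 and 8 (122 and 137 against 103 bp). In RBBP6 intron 4 the widths were near (104 against 103 bp), and in CSTF3 the intronic peak was narrower (175 against 199 bp). The shares and intervals therefore do not describe reads, and an even split of positions need not be one of reads. A pileup is not an amount of message, and how stable each RNA is was not measured.

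Over all genes, a retained peak lay at an annotated intronic end in 46% of the 7993 protein-coding genes that have such an end and a distal peak, and its edge lay within 100 bp of the end in 32.1%. All 3 genes met both criteria. In the 3673 genes with both peaks, the strongest intronic end took a median of 34.1% of the pileup (quartiles 25.9 and 43.9), when the distal pileup was the strongest over the terminal exon and the sequence after it. By that measure the shares were 46.7% in PCF11, 52.1% in CSTF3 and 64.4% in RBBP6. The last set intron 8, the strongest of 3 intronic ends with a peak, against the A-rich terminal exon peak. All 3 point values lay above the upper quartile. The intervals of PCF11 (31.7 to 62.1) and CSTF3 (37.2 to 66.7) include that quartile, and that of RBBP6 (50.9 to 76.4) does not. The PCF11 interval also includes the median. The intronic pileup was at least the distal one in 16% of these genes, and in 2 of the 3, CSTF3 and RBBP6. The strongest retained peak of a gene was distal in 81% of 12370 genes, and in 1 of the 3, PCF11. With 3 genes chosen for their intronic sites, these counts are a description and were not tested.

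**Figure D2:**
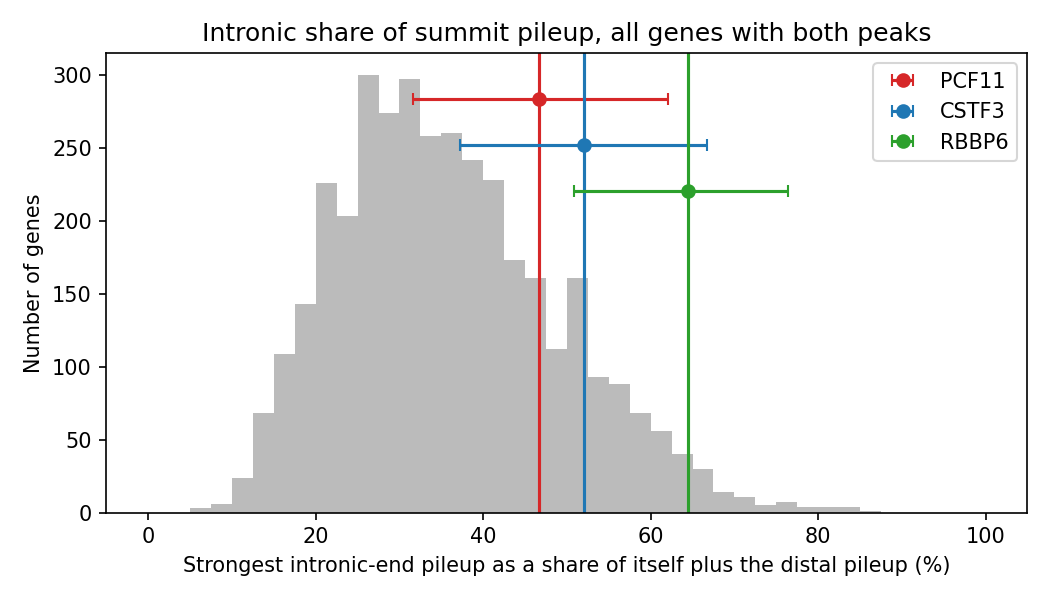
Number of genes (vertical axis) by the share of the summed pileup at the strongest annotated intronic end (%, horizontal axis) for 3673 genes, with points and Clopper-Pearson 95% intervals for PCF11 (46.7%), CSTF3 (52.1%) and RBBP6 (64.4%). The 3 points lie to the right of the median of all genes, 34.1%, which the interval of PCF11 includes.

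Away from annotated ends, the numbers of intronic peaks lay on both sides of those of other genes. PCF11, CSTF3 and RBBP6 had 4, 10 and 1 intronic peaks, beside medians of 2, 7 and 3 in genes of like length. The 10 of CSTF3 include the peak at an end of LINC00294, past the reference transcript. Of these 15 peaks, 2 (13.3%) had a hexamer and no A-rich sequence, close to the 15% of 73739 intronic peaks over all genes. They are the second peaks of PCF11 intron 1 and CSTF3 intron 3 shown above, so that both lay in the same intron as a known site. Of the 5 peaks at intronic ends, 3 had a hexamer and no A-rich sequence, and so did all 3 distal peaks. Over all genes, 46.2% of peaks at intronic ends and 72.0% of peaks at distal ends met this criterion. Any of the hexamers was present before 53.9% of intronic peaks, 71.9% of peaks at intronic ends and 86.9% of peaks at distal ends.

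The intron that holds a site can be removed before the site is cut, and this depends in part on its 5′ splice site, which U1 snRNP reads. The 9 bases at the 5′ splice site of the host intron are shown with the GT in capitals, 3 in the exon and 6 in the intron.
PCF11 intron 1: aagGTtttt
CSTF3 intron 3: gagGTtact
RBBP6 intron 3: gcaGTatgt
RBBP6 intron 4: aagGTatat
RBBP6 intron 8: aatGTaaga
PCF11 intron 8, the highest score of the gene: cagGTaagt
Against a weight matrix from 183430 introns, with a median of 8.27 bits, PCF11 intron 1 scored 2.32 bits, the lowest of the 15 introns of the gene and at percentile 1.36 of all introns. CSTF3 intron 3 scored 3.71 bits, the second lowest of 20, at percentile 3.51. The lowest, intron 2 of CSTF3 at 1.29 bits, is only 122 bp long and ends just before the exon that precedes intron 3. RBBP6 intron 3 scored 3.69 bits, the lowest of 17, at percentile 3.49. The other host introns of RBBP6 scored 7.01 and 7.75 bits, at percentiles 30.6 and 40.4, below the median of all introns but not at the low extreme.

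All 3 known sites thus lay in introns with weak 5′ splice sites by sequence, and these introns were long for their genes, at 3695, 33248 and 4531 bp (second, first and second by length). Other introns of these genes were also long and weak, RBBP6 intron 7 (3057 bp, 3.92 bits) and PCF11 intron 11 (3188 bp, 4.56 bits), and held no annotated end with a peak. Over all genes, host introns had a median length of 5218.5 bp, against 1552 bp for all introns, so that long host introns were general. The 3476 host introns with a peak edge within 100 bp of an annotated end had a median score at percentile 45.9 (quartiles 21.5 and 71.5), against 50.5 for the other 40297 introns of the same genes. In genes with at least 10 introns, the host intron had the lowest score of its gene in 7.97% of 2458 cases, beside 2 of the 5 host introns here. Its score was at or below percentile 5 in 7.12%, beside 3 of the 5. Both limits were set after the scores of the 3 genes were seen, and a score from sequence is not a measurement of splicing.

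**Figure D3:**
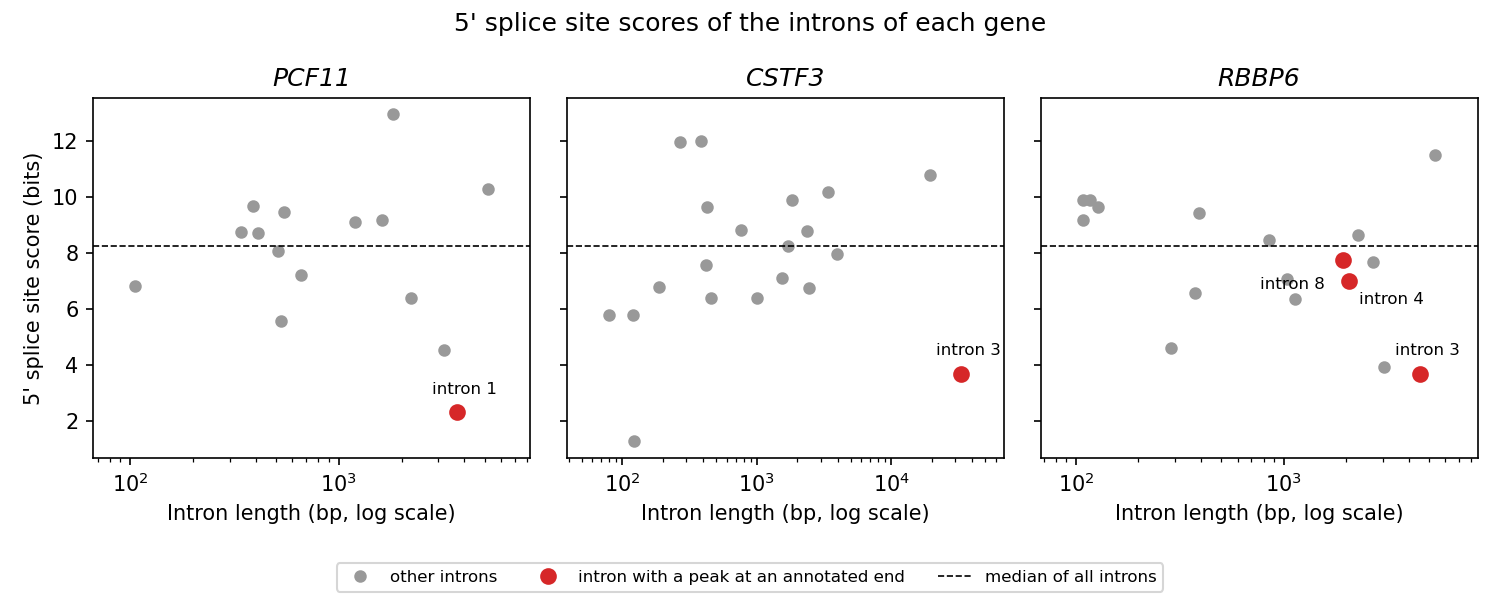
Score of the 5′ splice site (bits, vertical axis) against intron length (bp, log scale) for each intron of the 3 genes, with the introns that hold a peak at an annotated end in red and the median of all introns, 8.27 bits, dashed. Introns 1 of PCF11, 3 of CSTF3 and 3 of RBBP6 lie at the low and long corner, near RBBP6 intron 7 and PCF11 intron 11, and introns 4 and 8 of RBBP6 lie close to the median.

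Among 19 other genes of the machinery (subunits of CPSF, CstF and cleavage factors I and II, the poly(A) polymerases, the poly(A) binding protein PABPN1, the phosphatase SSU72, the scaffold SYMPK and the exonuclease XRN2), all 19 had a distal peak and 17 had at least 1 intronic peak. No share over all genes is given for the count of 17. In 16 of the 19 the strongest peak was distal, near the 81% of all genes with a distal peak and an intron. An intronic end was annotated in 12, and 6 of these had a peak there, in 5 with the edge within 100 bp. Over all genes with such an end and a distal peak, these shares were 46% and 32.1%, so the counts are not a trait of these genes. In 4, WDR33, SYMPK, PAPOLA and SSU72, such a peak had a hexamer and no A-rich sequence. Only in SSU72, whose product removes phosphates from the C-terminal domain of RNA polymerase II, did the intronic pileup, 34 in intron 2, equal or exceed the distal one. Over all genes with both peaks, that held in 16%. PAPOLA, the main poly(A) polymerase, had peaks at 6 intronic ends with pileups of 9 to 23. WDR33, the CPSF subunit that contacts the hexamer, had 2 in intron 7, with pileups of 20 and 14.

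The labelled cell type was checked on genes that mark sympathetic neuroblasts. Distal peaks were present for HAND2 (pileup 70), GATA3 (62), DBH (58), MYCN (96) and ALK (21). That of ALK lay below the median distal pileup of all genes, 24. None was listed for PTPRC, ALB or KRT5, which mark leukocytes, hepatocytes and basal epithelium.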

How the data were processed

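Poly(A) 3′ ends were sequenced (QuantSeq REV) in 8 libraries, biological duplicates of 4 groups. The authors trimmed reads with BBDuk, mapped them to GRCh38 with STAR 2.5.1b, merged all libraries and called peaks with MACS2 2.1.1 without a model and with an extension of 100 bases. The deposited list gives the fold enrichment (a ratio over local background), −log10 p and −log10 q at the summit, and a score, 10 times −log10 q. It has 0 columns per sample. The planned edgeR test of THZ531 against DMSO was therefore not run, and the depth per library is unknown.

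Peaks were assigned with GENCODE release 44 to annotated transcript ends (200 bp before to 600 bp after, by an overlap of at least 1 bp), then exons. A remaining peak within the gene span was counted as intronic, also where it lay past the reference transcript. Ends of transcripts incomplete at their 3′ end were left out. The strand of the gene was assumed for each peak. Hexamers were searched on that strand, in the 100 bases before the 3′ edge of the peak, and overlaps were allowed: AATAAA and ATTAAA and AGTAAA and TATAAA and AATATA and AATACA and CATAAA and GATAAA and AATGAA and ACTAAA and AAGAAA and AATAGA. The one named is AATAAA or ATTAAA where present, and distances run from its first base to the edge. Pileup n and background b were solved from fold (n + 1)/(b + 1) and the Poisson p. Genes of like length are 1 of 20 bins by span. The 3 genes, the 19 other genes and the marker genes were chosen with earlier results of these data known. Named peaks were those at annotated ends, the strongest intronic peak of each gene, and each intronic peak with a hexamer and no A-rich sequence. Other peaks are given by their values. Recovery and hexamer search were tested on simulated data. Python 3.11.15, numpy 2.4.6, pandas 2.3.3, scipy 1.17.1 and matplotlib 3.10.9 were used.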

Additional observations from a re-analysis of the deposited data

How the results depend on the processing

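Of 71 alternative values computed, 59 stayed near the value reported and 12 moved. A count was called near when it differed by a factor of at most 1.5. By that rule the fall of CSTF3 intronic peaks from 10 to 7, at a −log10 q of at least 5, counts as near. When −log10 q had to reach 10, the windows of PCF11, CSTF3 and RBBP6 held 5, 5 and 6 peaks, and PCF11 and CSTF3 had 1 and 2 intronic peaks. When it had to reach 5, PCF11 had 2. With basic transcripts only, the numbers of peaks at annotated intronic ends fell to 0 in PCF11, whose short transcript is not in that set, and 1 in RBBP6. When pileups were summed over all peaks of each kind, the intronic share fell to 22.6% in PCF11 and 29.1% in CSTF3, since several distal peaks, some at ends of opposite-strand genes, enter the sum. The share of all genes with a peak at an annotated intronic end was 37.8% over all protein-coding genes and 32.1% with the edge within 100 bp. No paired analysis was possible because the list pools all libraries, and leaving out each replicate could not be run for the same reason. Pileups of 6 to 38 limit every share to a wide interval.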
